A study of Homo sapiens with 4 samples.

Results

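The genes described here form the core of the adherens junction and of the desmosome, the paired contacts that hold neighbouring epithelial cells together. They were listed by gene symbol: CDH1 (E-cadherin), CTNNB1 (β-catenin), CTNNA1 (α-catenin), CTNND1 (p120-catenin), JUP (plakoglobin), PKP2 and PKP3 (plakophilins), DSC2 (desmocollin-2), DSG2 (desmoglein-2) and DSP (desmoplakin). Of the 10 genes, 9 had probe sets annotated to that symbol alone, 22 of the 54675 probe sets on the array. The 4 probe sets of CTNND1 were annotated to more than 1 symbol, and no value is given for that gene. The 9 genes were compared with 12264 expressed genes, and 21 of the 22 probe sets counted as expressed; the exception was 1554411_at of CTNNB1, which lay under the array median on 3 arrays.

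The cells were T84, an established line from a human colorectal carcinoma whose cells grow as polarised layers on permeable filters. Each group was a single Affymetrix U133 Plus 2.0 array, so the groups have no replicates and no test across samples exists. The 2-miRNA array held cells transfected with miR-338-3p and miR-451, the 4-miRNA array cells that also received miR-210 and miR-33a, and both were harvested on day 5. The day 5 and day 7 control arrays held cells that received a short RNA with little homology to human microRNAs (miRNAs). All cells were seeded at 500000 per well on 24 mm filters with 0.4 µm pores and transfected with 15 pmol of oligonucleotide, and all come from this 1 carcinoma line. As deposited, the trimmed mean signal was 147 and 150 on the miRNA arrays against 76.6 and 74.3 on the controls, so array brightness and miRNA treatment cannot be told apart. Each array was therefore scaled to a trimmed mean of 500. Signals below are scaled signals, and differences are on the log2(signal + 32) scale. A gene was counted as at least 2-fold apart at a log2 difference of 1 or more.

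E-cadherin is a transmembrane protein that binds its like on the next cell. Its tail holds p120-catenin and either β-catenin or plakoglobin, and α-catenin joins these to actin. In the desmosome, desmocollins and desmogleins take the place of E-cadherin, plakoglobin and plakophilins bind their tails, and desmoplakin ties the plaque to keratin filaments. β-Catenin has a second life as the transcription partner of the TCF factors in Wnt signalling. In the intestine, JUP serves both kinds of junction, and DSC2 and DSG2 are the main desmosomal cadherins.

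The transfected miRNAs act through their seeds, bases 2 to 8, and 3 of the 4 were matched in the RefSeq table of GRCh38.p14. They are printed because they are the agents that separate the groups, with the seed in capitals. The labels give no arm for miR-33a and miR-210; the arms shown are those to which these names conventionally refer.
hsa-miR-338-3p: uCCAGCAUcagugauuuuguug
hsa-miR-33a-5p: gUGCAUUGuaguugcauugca
hsa-miR-210-3p: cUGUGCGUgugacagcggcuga
The 3 seeds differ from each other. The full printed miRNAs lie, in that order, at chr17:81125887-81125908 (minus strand), chr22:41900949-41900969 (plus strand) and chr11:568112-568133 (minus strand).

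Against the day 5 control, CTNNB1, PKP2 and DSC2 were higher in miRNA-transfected cells, while CDH1, CTNNA1, JUP, DSG2 and DSP stayed within 2-fold. CTNNB1 was 2.46-fold higher with 2 miRNAs and 1.92-fold with 4. PKP2 was 2.29-fold and 2.25-fold higher, and DSC2 2.14-fold and 2.28-fold. PKP3 was 1.59-fold lower with 2 miRNAs. PKP2 was also 1.94-fold higher in the day 7 control than in the day 5 control. These values come from the probe set with the highest mean of each gene. For PKP2 and CTNNA1 the probe sets of the gene differed by more than 1 on the log2 scale and in sign. So did those of DSC2 on day 7 against day 5, from −0.17 to 2.06. The error of a probe set was taken as the spread of the log2 difference between probe sets of the same gene, over 2625 genes with several well-measured probe sets. This SD was 0.61 for either miRNA array against the day 5 control, 0.28 for day 7 against day 5 and 0.19 for the 4-miRNA against the 2-miRNA array. It leaves out variation between cultures, which was not measured. Differences are set beside this SD for size only, and exceeding it is not a test.

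**Figure D1:**
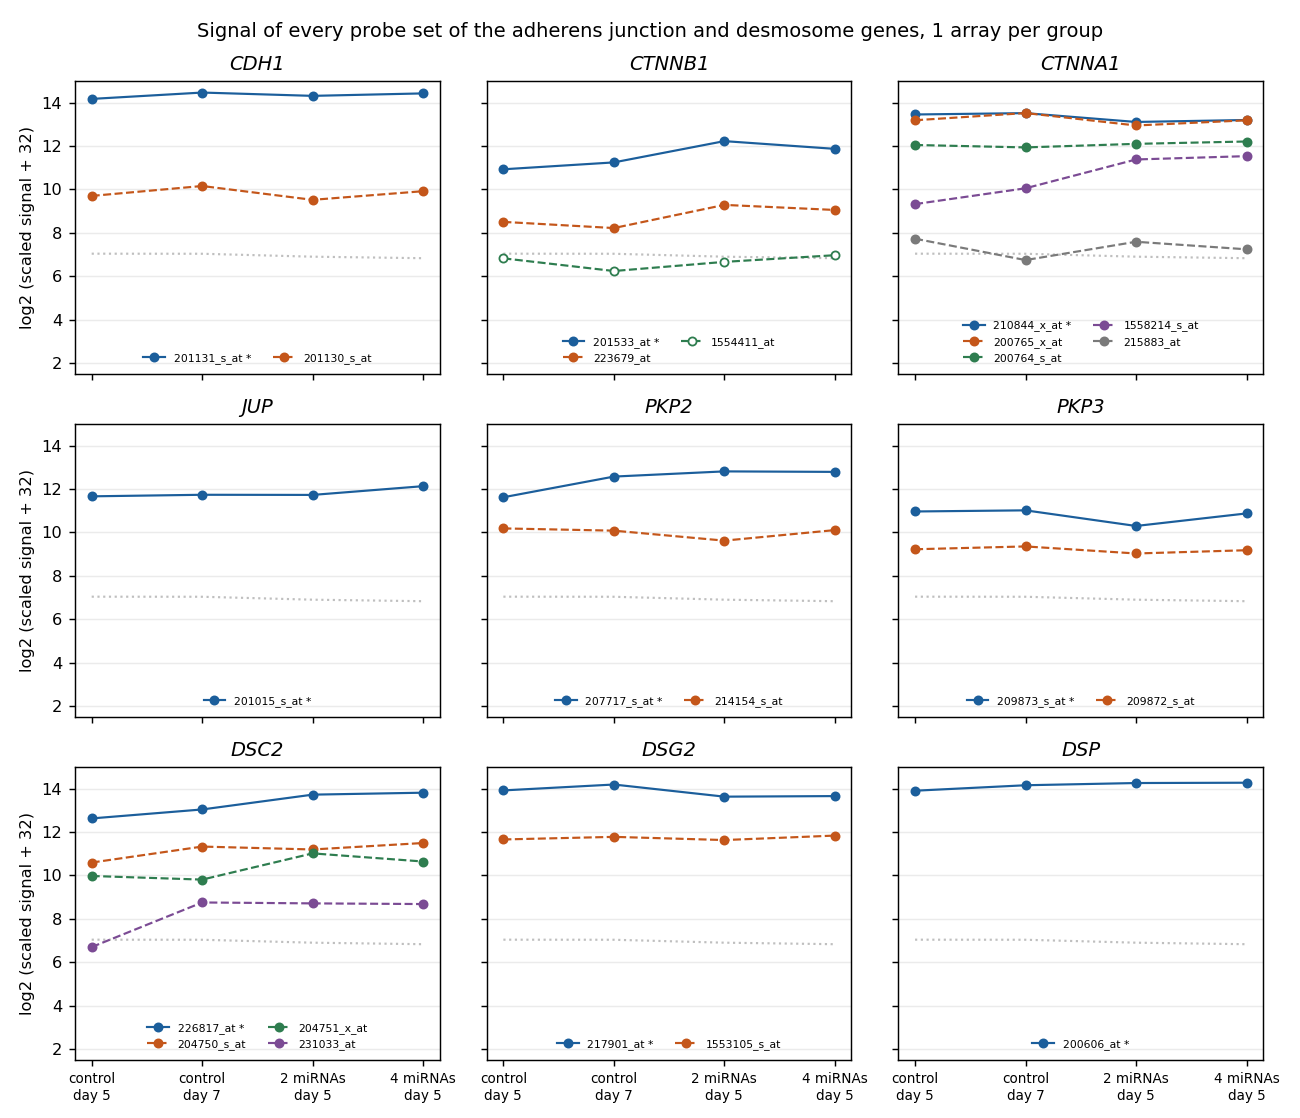
Signal of all 22 probe sets of the 9 genes on a log2 axis, with 1 array per group on the x axis; lines join the values of 1 probe set, the asterisk and solid line mark the probe set that stands for the gene, the open symbol the probe set that did not count as expressed, and the dotted line the median of each array. The 3 CTNNB1 probe sets differ in level, the leading CTNNB1, PKP2 and DSC2 probe sets are lowest on the day 5 control, and CDH1 lies close to level across the arrays.

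CDH1 had a scaled signal of 20366 on the 2-miRNA array, 22035 on the 4-miRNA array, and 18470 and 22640 on the controls of day 5 and day 7 (probe set 201131_s_at). The day 5 control was the lowest and the day 7 control the highest. The differences from the day 5 control were 0.14, 0.25 and 0.29 (log2) for the 2-miRNA, 4-miRNA and day 7 arrays, smaller than the SD between probe sets for both miRNA arrays. The second probe set, 201130_s_at, gave 702, 936, 801 and 1111 in the same order of arrays. Its differences were −0.18, 0.22 and 0.46. Both probe sets were thus higher on the day 7 control and the 4-miRNA array than on the day 5 control, and they differed in sign for the 2-miRNA array.

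CTNNB1 encodes the catenin that links E-cadherin to α-catenin and also acts in Wnt signalling. Its leading probe set, 201533_at, read 4767 with 2 miRNAs, 3716 with 4 miRNAs, and 1918 and 2398 on the controls of day 5 and day 7. Both miRNA arrays stood above both controls. The log2 differences from the day 5 control were 1.30 and 0.94, at percentiles 95.1 and 91.2 of all expressed genes, and each exceeded the SD between probe sets of 0.61. Under other scalings the 4-miRNA difference ran from 0.89 to 1.22, past 2-fold under 1 of the 4 scalings, whereas the 2-miRNA difference passed it under all 4. A second probe set, 223679_at, also stood higher on both miRNA arrays, at 593 and 499, than on the controls, at 331 on day 5 and 266 on day 7. Its differences from the day 5 control were 0.78 and 0.55, above 0 but not 2-fold. The remaining dim probe set, 1554411_at, read 69.0, 93.1, 81.2 and 43.5 on the 2-miRNA, 4-miRNA, day 5 and day 7 arrays and is given for completeness. Against the day 7 control the leading probe set differed by 0.98 and 0.62 and the second by 1.07 and 0.83.

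CTNNA1 encodes the catenin that carries the complex to actin, and it had 5 probe sets with differing answers. The leading one, 210844_x_at, was lower with miRNAs, at 8823 and 9399 against 11214 on day 5 and 11713 on day 7. The differences from day 5 of −0.34 and −0.25 were smaller than the SD between probe sets, and the latter turned to 0.03 on a common-median scale. By contrast, 1558214_s_at read 2637 and 2937 with miRNAs against 609 and 1031 in the controls. That probe set was higher by 2.06 and 2.21 against the day 5 control and by 0.73 on day 7. The remaining 3 probe sets differed from the day 5 control by −0.49 to 0.16 on the miRNA arrays. In the order 2-miRNA, 4-miRNA, day 5 and day 7, 200765_x_at read 7880, 9304, 9320 and 11741, and 200764_s_at read 4366, 4709, 4210 and 3892. The dim 215883_at read 160, 119, 180 and 75.1, the last under the array median. The gap between the highest and the lowest CTNNA1 probe set was 2.40 with 2 miRNAs and 2.70 with 4, where the median gap over the 2625 genes was 0.58 and 0.57. Names ending in _x_at mark probe sets with probes that can bind other sequences, and CTNNA1 has a pseudogene, CTNNA1P1; whether this bears on the gap was not tested.

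JUP, which can stand in for β-catenin at the adherens junction and is a plaque protein of the desmosome, had a single probe set. It read 3367 and 4463 with 2 and 4 miRNAs and 3216 and 3382 on the day 5 and day 7 controls. The 4-miRNA array was the highest, by 0.47 against the day 5 control and 0.40 against the 2-miRNA array, and the latter exceeded its SD between probe sets of 0.19. The difference between CTNNB1 and JUP, paralogs with armadillo repeats, was therefore 1.23 with 2 miRNAs and 0.47 with 4. The SD of such a difference between probe sets is 0.87 and 0.86. The first exceeded it and the other did not, which is a mark of size and not a test.

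DSC2, one of the cadherins of the desmosome, had 4 probe sets, and all of them were higher on both miRNA arrays than on the day 5 control. The leading probe set, 226817_at, read 13523 with 2 miRNAs, 14392 with 4 miRNAs, and 6305 and 8408 on the controls of day 5 and day 7. Its differences from the day 5 control were 1.10 and 1.19, at percentiles 93.1 and 94.2. Probe set 204750_s_at gave 2317, 2855, 1513 and 2545 in the same order, and 204751_x_at gave 2041, 1566, 975 and 864. On the day 7 control the first of these lay between the miRNA arrays, and the other was at its lowest. The dimmest, 231033_at, was under the median of the day 5 control at 71.8 and read 387, 378 and 399.5 on the 2-miRNA, 4-miRNA and day 7 arrays. It was thus at least 3.90-fold, 3.81-fold and 4.02-fold higher than the day 5 control. Over the 4 probe sets the median difference was 1.07 with 2 miRNAs, 1.04 with 4 miRNAs and 0.58 on day 7.

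DSG2, the partner cadherin in the same desmosome, did not share that difference. Its leading probe set, 217901_at, read 12679 and 12911 with miRNAs, and 15486 and 18702 on the controls of day 5 and day 7. Both miRNA arrays were lower than both controls, by −0.29 and −0.26 (log2) against day 5 and −0.56 and −0.53 against day 7, except that on a common-median scale the 4-miRNA difference from day 5 was 0.02. The other, 1553105_s_at, lay between 3143 and 3629 on all 4 arrays. By the leading probe sets, the difference between DSC2 and DSG2 was 1.38 with 2 miRNAs and 1.45 with 4, larger than its error of 0.87 and 0.86. On day 7 it was 0.14 with an error of 0.39, but the DSC2 probe sets there ran from −0.17 to 2.06.

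Because DSC2 and DSG2 went apart, the bases around their starts are shown, from 250 before to 50 after each start, credited to RefSeq on GRCh38.p14. Promoter sequences were matched for 6 of the 10 genes, with 11 starts among them. Capitals mark matches, on either strand, to CAGGTG (the E-box bound by the Snail and ZEB repressors of E-cadherin), ACGTG (the core of the hypoxia response element) or CTTTGA (part of the TCF site).
DSC2, chr18:31102372-31102671, minus strand: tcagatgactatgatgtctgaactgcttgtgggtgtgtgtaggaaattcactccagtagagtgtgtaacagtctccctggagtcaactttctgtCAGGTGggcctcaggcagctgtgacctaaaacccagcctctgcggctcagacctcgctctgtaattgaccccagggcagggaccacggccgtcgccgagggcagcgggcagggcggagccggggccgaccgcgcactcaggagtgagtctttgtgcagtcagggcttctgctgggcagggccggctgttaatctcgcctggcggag
DSC2, chr18:31101211-31101510, minus strand: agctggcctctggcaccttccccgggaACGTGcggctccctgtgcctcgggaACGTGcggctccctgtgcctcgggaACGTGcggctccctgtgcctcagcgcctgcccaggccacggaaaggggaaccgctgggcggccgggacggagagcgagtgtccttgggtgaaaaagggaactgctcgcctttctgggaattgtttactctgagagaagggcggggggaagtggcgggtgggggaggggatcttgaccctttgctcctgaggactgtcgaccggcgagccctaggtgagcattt
DSG2, chr18:31497927-31498226, plus strand: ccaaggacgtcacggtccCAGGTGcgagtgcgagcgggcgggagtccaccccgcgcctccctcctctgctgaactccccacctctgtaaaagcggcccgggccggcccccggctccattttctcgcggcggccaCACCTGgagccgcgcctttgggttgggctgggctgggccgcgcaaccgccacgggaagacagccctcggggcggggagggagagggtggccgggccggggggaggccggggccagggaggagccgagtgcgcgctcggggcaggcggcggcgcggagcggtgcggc
CTNNB1, chr3:41199255-41199554, plus strand: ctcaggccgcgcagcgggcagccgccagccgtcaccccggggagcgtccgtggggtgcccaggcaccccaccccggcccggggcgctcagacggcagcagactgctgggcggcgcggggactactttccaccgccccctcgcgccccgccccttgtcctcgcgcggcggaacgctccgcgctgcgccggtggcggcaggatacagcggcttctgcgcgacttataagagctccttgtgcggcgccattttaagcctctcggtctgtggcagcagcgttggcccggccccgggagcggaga
The first DSC2 start had 1 CAGGTG, 156 bases before it. The second had 3 copies of ACGTG, 223, 198 and 173 bases before it, spaced 25 bases apart. DSG2 had 2 copies of CAGGTG, and CTNNB1, shown because it was also higher with miRNAs and had a matched promoter, had no match to any of the 3. No matches overlapped in these sequences. Over 35116 promoters of this length, 20.6% held CAGGTG, 21.4% ACGTG and 12.9% CTTTGA, and 1.98% had 3 or more ACGTG. Of the 11 starts of the core genes 4 held CAGGTG, 2 ACGTG and 2 CTTTGA. DSP and 1 start of JUP, not printed, also had 2 copies of CAGGTG each. The matches describe letters and show neither binding nor use of a start.

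The plakophilins bridge desmosomal cadherins and desmoplakin. PKP2 read 7179 and 7064 with 2 and 4 miRNAs, and 3121 and 6075 on the controls of day 5 and day 7, by probe set 207717_s_at. The day 5 control stood alone at the low end, and the other 3 arrays lay close together. Differences from it were 1.19, 1.17 and 0.95, the last at percentile 96.2 of all genes. The second probe set, 214154_s_at, did not share this. It read 756 with 2 miRNAs and 1072, 1133 and 1052 on the 4-miRNA, day 5 and day 7 arrays, with differences of −0.56, −0.08 and −0.10. The probe sets of PKP2 were thus 1.76, 1.25 and 1.06 apart in the 3 comparisons.

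PKP3 was lowest on the 2-miRNA array. Probe set 209873_s_at read 1227 there, against 1848 with 4 miRNAs and 1970 and 2043 on the day 5 and day 7 controls. The difference from the day 5 control was −0.67 with 2 miRNAs and −0.09 with 4, the latter 0.19 on a common-median scale. Against the 2-miRNA array the 4-miRNA array was higher by 0.58, at percentile 95.4, and that exceeded the SD between probe sets of 0.19. The second probe set, 209872_s_at, had the same order of arrays at 491, 548, 566 and 623, but a smaller difference of 0.15 between the miRNA arrays.

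DSP, which anchors keratin filaments to the plaque, had a single probe set at 19618 and 19810 with miRNAs and at 15338 and 18268 on the controls of day 5 and day 7. The day 5 control was again the lowest, and the differences of 0.35, 0.37 and 0.25 were within the SD between probe sets of each comparison. The filaments that it binds, with their linkers, had 8 expressed genes. Of these VIM and PLEC, the genes of vimentin and of the linker plectin, were past 2-fold against the day 5 control. With 2 miRNAs 1 of the 8 was 2-fold higher and 1 lower, beside 8.11% and 6.37% of all genes. With 4 miRNAs the counts were 1 and 0, beside 8.03% and 6.70%. On day 7 they were 1 and 1, beside 3.35% and 2.41%. VIM read 6.34 on day 5, far under that array's median, 251 on day 7, 99.5 with 2 miRNAs and 74.0 with 4. It was at least 2.53-fold higher on day 7, and no fold is given for its dim signals on the miRNA arrays. PLEC read 368 on day 5, 153 on day 7, 47.5 with 2 miRNAs and 277 with 4. It was at least 4.22-fold lower with 2 miRNAs, and its difference on day 7 was −1.11.

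**Figure D2:**
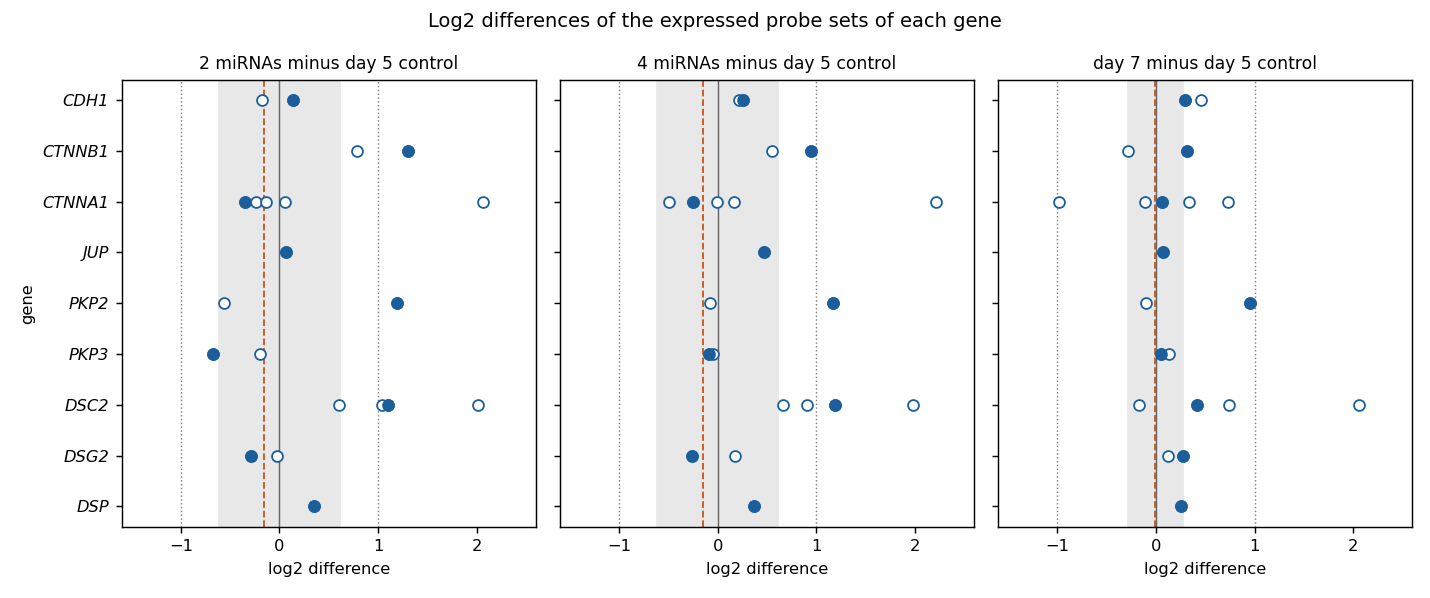
Log2 differences on the x axis for the 9 genes on the y axis, in 3 comparisons with the day 5 control; filled points are the probe sets that stand for the gene, open points the other expressed probe sets, the grey band is 0 ± the SD between a gene's probe sets, dotted lines are 2-fold and the dashed line is the median of all expressed genes. All DSC2 and CTNNB1 points lie to the right of 0 in both miRNA panels, while CTNNA1 and PKP2 have points on both sides.

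Across the genes, the 2-miRNA array minus the day 5 control gave a median of 0.14 over the 9 genes, from −0.67 (PKP3) to 1.30 (CTNNB1), beside −0.16 over all 12264 genes. The 8 intestinal epithelial markers had medians of 0.33 with 2 miRNAs and 0.41 with 4 against the day 5 control. Of these 8, 3 were below 0 with 2 miRNAs and 2 with 4. They ran from CDX1 at −0.67 and −0.36 to EPCAM, an epithelial adhesion molecule, at 0.82 and 0.74. Their part in the result was not tested. CTNNB1, PKP2 and DSC2, 3 of the 9, were at least 2-fold higher and 0 lower, where 8.11% of all expressed genes were 2-fold higher and 6.37% lower. By probe set, 6 of 21 were 2-fold higher and 0 lower, beside 9.24% and 5.89% of all expressed probe sets. The 6 included 226817_at, 204751_x_at and 231033_at of DSC2, and probe sets of 1 gene are not independent. They also included 1558214_s_at of CTNNA1, whose leading probe set was not 2-fold apart. By the median over its probe sets PKP2 was at 0.31 with 2 miRNAs and 0.55 with 4, and its 2-fold call was lost in both comparisons. With 4 miRNAs the median was 0.37, beside −0.15, and 2 of 9 genes, PKP2 and DSC2, were 2-fold higher, with 0 lower, beside 8.03% and 6.70%. There 4 of 21 probe sets were 2-fold higher and 0 lower, beside 8.65% and 6.21%. Both comparisons share the day 5 control array. The median of all genes below 0 is itself a matter of scaling: it was 0.01 and 0.12 when arrays were set to a common median. Relative to the median gene, CTNNB1 was at 1.46 and 1.09, PKP2 at 1.35 and 1.32 and DSC2 at 1.26 and 1.33 with 2 and 4 miRNAs. Without any scaling, all 9 genes were above 0 on both miRNA arrays, from 0.24 (PKP3) to 2.14 (CTNNB1) with 2 miRNAs. The median of all genes was then itself 0.58 with 2 miRNAs and 0.61 with 4, and PKP3 lay below it with 2 miRNAs. With 4 miRNAs the small negative differences of CTNNA1, PKP3 and DSG2 turned to 0.03, 0.19 and 0.02 on the common-median scale.

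**Figure D3:**
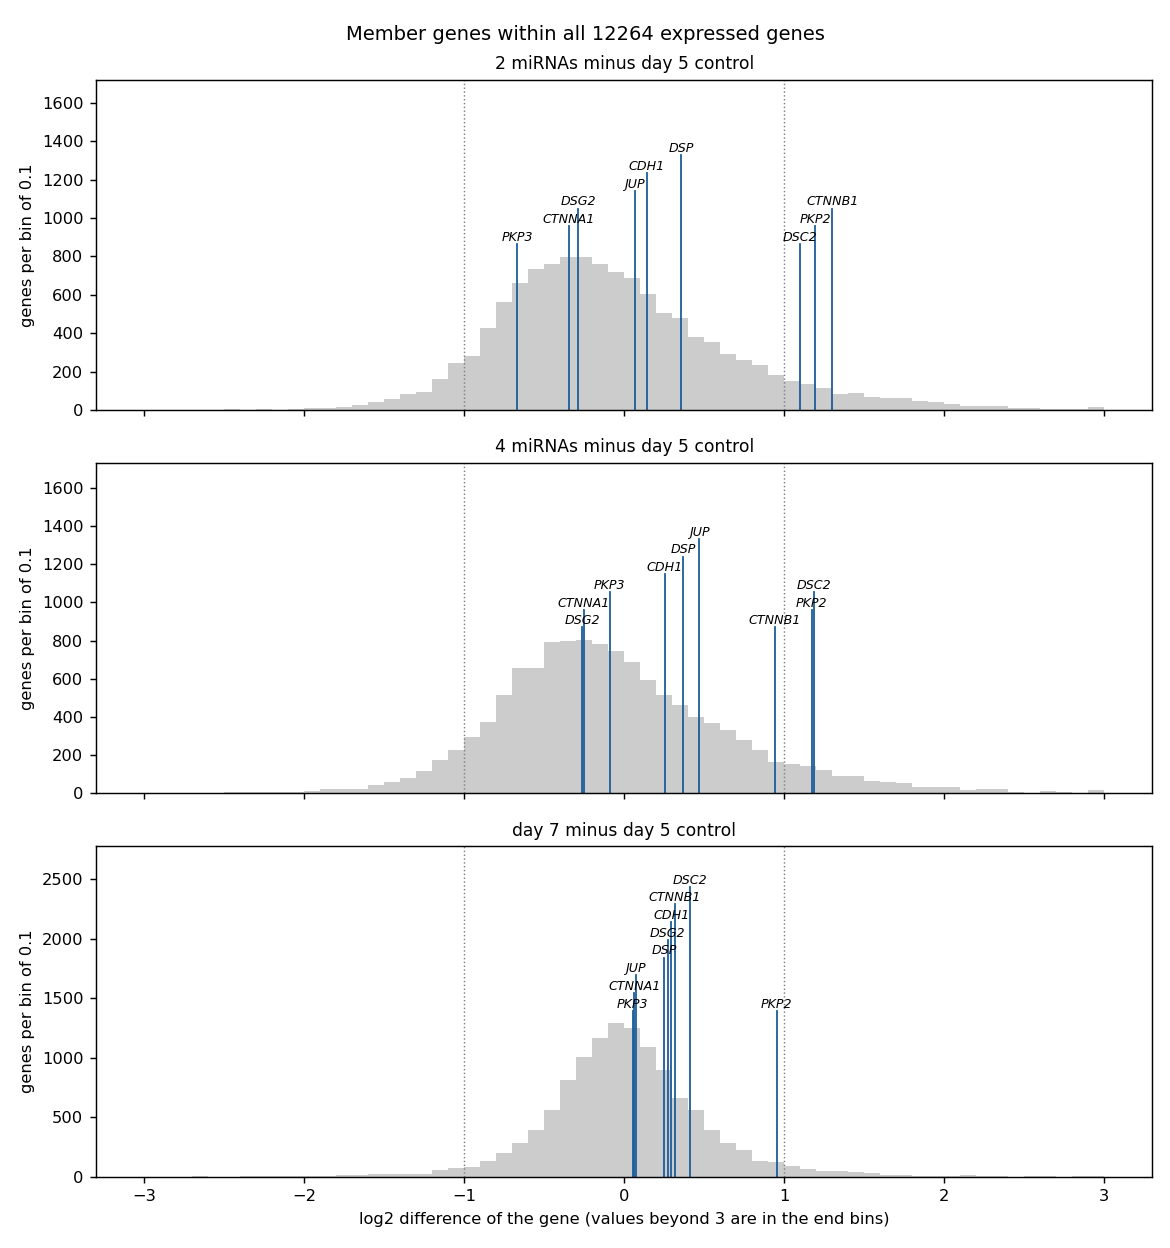
Histograms of the log2 difference of all 12264 expressed genes (x axis, bins of 0.1; y axis, genes per bin) for 3 comparisons with the day 5 control, with each of the 9 genes as a vertical line and dotted lines at 2-fold; the height of a line carries no value. DSC2, PKP2 and CTNNB1 lie in the upper tail with 2 miRNAs, and all 9 genes lie above 0 on day 7.

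The day 7 control minus the day 5 control set longer against shorter culture without these miRNAs. With 1 array each, time cannot be told apart from variation between cultures or arrays. The same day 5 array is the reference of both miRNA comparisons above. By their leading probe sets all 9 genes were above 0 on day 7 against day 5, with a median of 0.27 beside −0.01 over all genes. Of all genes 49.3% were above 0. By gene, 0 of 9 were 2-fold apart, beside 3.35% of all genes 2-fold higher and 2.41% lower. PKP2 came closest at 0.95, followed by DSC2 at 0.41, CTNNB1 at 0.32 and CDH1 at 0.29, whereas CTNNA1, JUP and PKP3 were between 0.05 and 0.07. Over all expressed probe sets of these genes, 16 of 21 were above 0. The 5 below 0 were the second probe sets of PKP2 (−0.10) and CTNNB1 (−0.28), 215883_at (−0.99) and 200764_s_at (−0.11) of CTNNA1, and 204751_x_at of DSC2 (−0.17). The intestinal epithelial markers moved with this comparison: their median difference was 0.52 and 8 of 8 were above 0, including KRT20, a keratin of mature enterocytes, at 0.94 and CDH17, the intestinal cadherin, at 0.71. Their part in the result was not tested. In an array of whole cultures, more junction RNA per cell and more cells that express it cannot be told apart.

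The 4-miRNA minus the 2-miRNA array gave a median of 0.09 beside 0.00 over all genes, and 0 of 9 genes were 2-fold apart, beside 1.04% of all genes 2-fold higher and 1.33% lower. PKP3 (0.58) and JUP (0.40) were the highest and CTNNB1 (−0.36) the lowest, and these exceeded the SD between probe sets of 0.19. For CTNNB1 the second probe set gave −0.23. DSC2, DSG2, PKP2 and DSP differed by 0.09 or less in either direction. The labels do not say whether 15 pmol was the amount of each oligonucleotide or of the mix.

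When the miRNA arrays were set against the day 7 control, which differs from them in time as well as treatment, the medians were −0.01 and 0.12 for 2 and 4 miRNAs, beside −0.16 and −0.15 over all genes. With 2 miRNAs 0 of 9 genes were 2-fold apart, beside 6.19% of all genes 2-fold higher and 4.03% lower, and with 4 miRNAs again 0, beside 5.63% and 4.15%. CTNNB1 (0.98 and 0.62) and DSC2 (0.68 and 0.77) were the highest of the 9 by their leading probe sets. CTNNB1 with 2 miRNAs passed 2-fold under 2 of the 4 scalings and DSC2 with 4 miRNAs under 1. The DSC2 probe sets disagreed here, with medians of 0.32 and 0.47. Of them 204751_x_at gave 1.21 and 0.83, 204750_s_at −0.13 and 0.16, and 231033_at −0.04 and −0.07. PKP2 was at 0.24 and 0.22, within the SDs between probe sets of 0.55 and 0.54, and CDH1 at −0.15 and −0.04, values that turned positive, to 0.14 and 0.24 at most, under the other scalings. PKP3 was the lowest with 2 miRNAs (−0.72) and DSG2 with 4 (−0.53). By order alone, 8 of 21 expressed probe sets (38.1%) had both miRNA arrays above both controls, beside 24.5% of all expressed probe sets, and 5 (23.8%) had them below, beside 36.8%. The 8 were the leading and second CTNNB1 probe sets, 1558214_s_at and 200764_s_at of CTNNA1, 207717_s_at of PKP2, 226817_at and 204751_x_at of DSC2, and DSP.

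Junction genes outside the core were followed in 9 lists with 112 genes, of which 81 were expressed. Against the day 5 control, 7 of them were 2-fold higher and 7 lower with 2 miRNAs, and 8 and 5 with 4 miRNAs, close to the shares of all genes given above (8.11% and 6.37% with 2 miRNAs, 8.03% and 6.70% with 4). Their medians were −0.05 and 0.03, closer to the median of all genes than that of the core. Among other cadherins 5 of 11 were expressed and 1 passed 2-fold, CDHR1, which was lower with 2 miRNAs (−1.32, 211 against 573, and −0.66 by the median over its probe sets). CDH2 and CDH5, the cadherins of nerve and mesenchyme and of endothelium, did not count as expressed. Of other desmosomal genes 6 of 10 were expressed. DSG4, a desmoglein of hair and skin, was under the median of the day 5 control at 74.3. With 2 miRNAs it read 211, at least 2.13-fold higher. It also read 172 with 4 miRNAs and 179 on the day 7 control, so only the day 5 control was low. DSC1, DSC3, DSG1 and PKP1, desmosomal genes of squamous epithelium, did not count as expressed. DSG3, another of these, did count, at 80.3 and 89.7 with miRNAs and 114 and 117 on the controls of day 5 and day 7, close to the array medians.

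Among partners of the adherens junction, VEZT, vezatin, a membrane protein of the cadherin complex, read 4770 and 4370 with miRNAs against 1122 and 1122 in the controls, higher by 2.06 and 1.93 (1.12 and 1.36 by the median over its probe sets). Of the 15 expressed partners, 1 was 2-fold higher with 2 miRNAs and 3 with 4, beside 8.11% and 8.03% of all genes. With either mix 0 were 2-fold lower, beside 6.37% and 6.7%. With 4 miRNAs VEZT was joined by ACTN4, an actin crosslinker (1.04), and AJUBA, a LIM protein at α-catenin (1.01). With 2 miRNAs ACTN4 and AJUBA were at 0.79 and 0.60. By the median over its probe sets AJUBA was at 0.65 with 4 miRNAs. Among 9 expressed genes of E-cadherin cleavage and turnover, 2 were 2-fold higher with either mix, beside 8.11% and 8.03% of all genes. RAB11A, a recycling GTPase named after its values were seen, gave −0.39 and −0.31 by its leading probe set and 1.09 and 1.04 by the median over its expressed probe sets. CBLL1, the ubiquitin ligase Hakai that marks E-cadherin for uptake, was higher by 1.73 and 1.72 (2144 and 2131 against 624), and ARF6, a small GTPase of junction uptake, by 1.14 and 1.53. ADAM15, a metalloprotease, was lower by −1.14 and −1.11 (−0.97 and −0.64 by the median over its probe sets, so not 2-fold), and PIP5K1C, a lipid kinase that binds E-cadherin, by −1.08 with 4 miRNAs.

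Of 11 transcription factors known to lower CDH1, 2 were expressed, TWIST1 and TCF3, and neither was 2-fold apart from the day 5 control on any array. SNAI1, SNAI2, ZEB1 and ZEB2 did not count as expressed. Of 14 factors of epithelial identity 12 were expressed. FOXA1, a forkhead factor, was 2-fold lower with 4 miRNAs, at 99.9 against 253 with 2 miRNAs and 350 on the day 5 control (−1.53 against the day 5 control), and the other expressed factors stayed within 2-fold by their leading probe sets. For KLF5, a factor of intestinal crypts named after its values were seen, the leading probe set gave −0.38 and 0.07 with 2 and 4 miRNAs against day 5, and the median over its 2 probe sets 1.55 and 1.86.

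Genes that act on β-catenin protein went in both directions. In the destruction complex APC, its scaffold, was higher by 1.27 and 1.28 (1116 and 1121 against 444), but by 0.21 and 0.26 by the median over its probe sets. AXIN1, another scaffold, was lower, at 61.9 with 2 miRNAs and 140 with 4 against 549 and 350 on the controls of day 5 and day 7. With 4 miRNAs the difference from day 5 was −1.76, and with 2 miRNAs it was under the array median and at least 6.29-fold lower. CSNK1E, a casein kinase of the pathway, was lower by −1.43 and −1.51. CTNNBIP1, which blocks β-catenin from TCF, was at least 2.73-fold lower with 2 miRNAs. It read 79.8 there and 110 with 4 miRNAs, against 238 and 127 on the controls of day 5 and day 7. Of the 14 expressed genes of this list 1 was 2-fold higher and 3 lower with 2 miRNAs, beside 8.11% and 6.37% of all genes. With 4 miRNAs 1 was higher and 2 lower, beside 8.03% and 6.7%. Among 10 expressed transcription partners of β-catenin, CDC73, a subunit of the PAF complex, was higher by 2.04 and 1.50, and BCL9L, a coactivator, lower by −1.16 with 2 miRNAs, which the median over its probe sets placed just short of 2-fold.

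**Figure D4:**
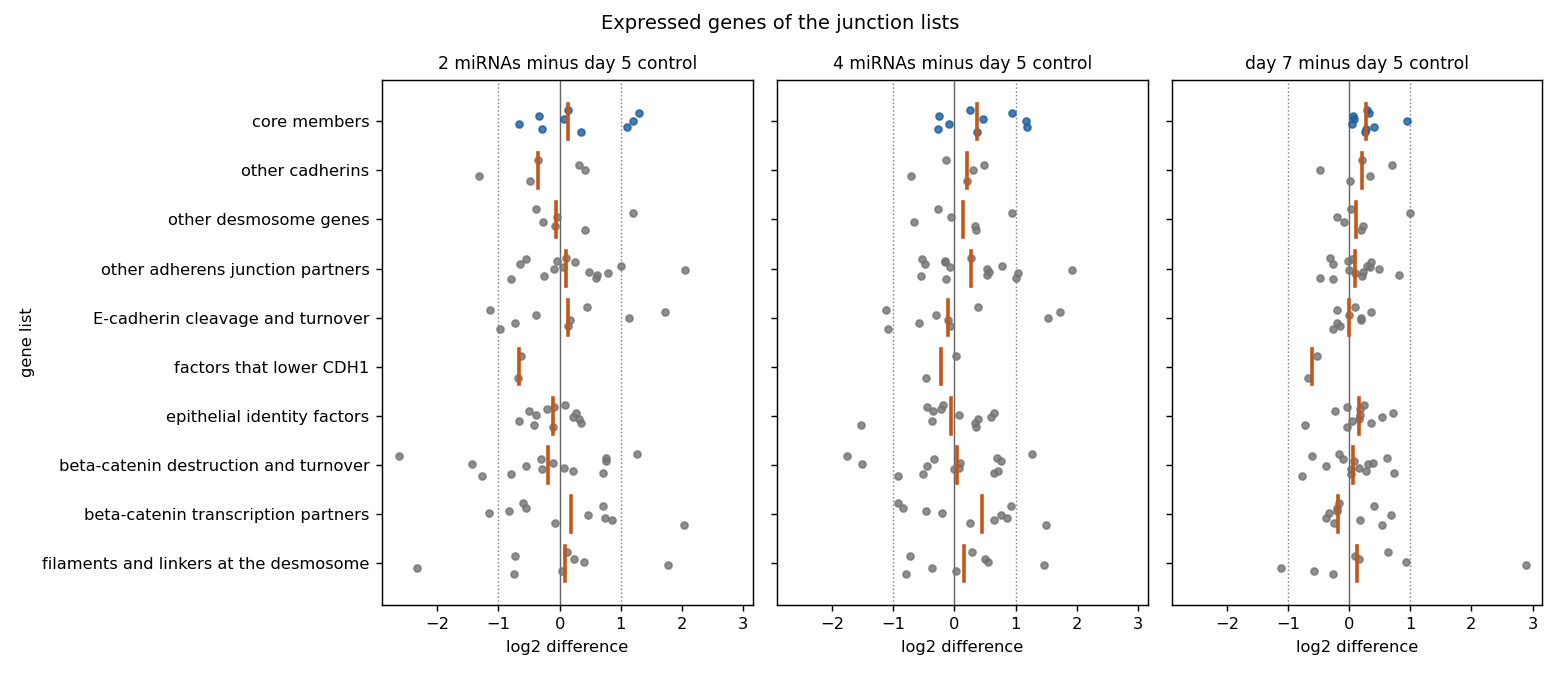
Log2 differences on the x axis of the expressed genes of each list on the y axis in 3 comparisons with the day 5 control; each point is a gene, the orange bar is the median of the list, points are spread vertically for legibility, and dotted lines are 2-fold. The core genes have medians of 0.14, 0.37 and 0.27, and the lists around β-catenin have points past 2-fold on both sides with 2 miRNAs.

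The patterns most like CDH1 over the 4 arrays, by the root mean square distance of log2 values centred on each gene, were those of SMAGP (distance 0.02), SLC24A1 (0.02) and ZNF397 (0.02). With 4 arrays such likeness is common: 2770 of 12263 genes were within 0.2 of CDH1. The genes most like CTNNB1 were FZD6, a Wnt receptor (0.03), RIPOR2 (0.03) and MAP4K5 (0.05), and 454 genes were within 0.2. FZD6 read 1402 and 1067 with 2 and 4 miRNAs against 552 and 664 on the day 5 and day 7 controls. Of the core genes, DSP was the nearest to CDH1 at 0.10 and DSC2 to CTNNB1 at 0.16, the latter at rank 240.

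The label of an intestinal epithelial line was set against marker genes. All 8 intestinal epithelial markers were at or above the array median on every array, and their summed signal ran from 103513 on the day 5 control to 159434 on the day 7 control. Fibroblast markers had 3 of 7 expressed, with sums from 462 to 821, and leukocyte markers 2 of 6, with sums from 242 to 447. Endothelial markers had 1 of 5 expressed, with sums from 235 to 405, and squamous markers 1 of 8, with sums from 257 to 577. All 5 sums were lower on both miRNA arrays than on the day 7 control, and COL3A1, DCN, PTPRC, VWF and KRT14 did not count as expressed.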

How the data were processed

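Total RNA of T84 cells was measured on 4 arrays with 54675 probe sets. The deposited table holds linear intensities, which the authors made with MAS5 (per the submitters' processing notes); no source used here states its scaling target. With 1 array per group, the number of arrays limits the precision, and no p-value is given. The platform annotation gave 41097 probe sets 1 symbol, 1801 several and 11777 none; 41043 matched the RefSeq gene table (GRCh38.p14) by gene ID.

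Each array was scaled to a mean of 500, trimmed by 2% at both ends; 32 was added and log2 taken (Python 3.11.15, numpy 2.4.6, pandas 2.3.3). An expressed probe set had a mean log2 at or above the median of all, or reached the 75th percentile of an array. A gene took the value of its brightest expressed probe set. Folds of dim genes are understated; where 1 side lay under its array's median, the brighter signal over that median is given as a lower bound. The SD between probe sets used genes with several probe sets of mean log2 9 or more. Named were all core genes, up to 4 genes past 2-fold per list and comparison, the 3 genes nearest to CDH1 and to CTNNB1, and markers. The steps were tested on simulated data. The core genes and lists were chosen with earlier results of these data known. Alternatives were other scalings, pseudocounts, filters and the median over probe sets.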

Additional observations from a re-analysis of the deposited data

How the results depend on the processing

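No paired analysis was possible because each group holds 1 array. Values are given for the median log2 difference of the 9 genes, the number of them past 2-fold in either direction, and the number of genes of the 9 lists past 2-fold. Without scaling, against the day 5 control, the median was 1.08 with 2 miRNAs and 1.33 with 4, with 5 and 6 genes past 2-fold and 28 and 35 list genes; against the day 7 control it was 0.94 and 1.12, with 4 and 5 genes and 21 and 27 list genes. The arrays' brightness then stays in every difference. With running-median centring the 2-miRNA median against day 5 was 0.39, and 1 gene passed 2-fold against day 7. With a common median the 4-miRNA median was 0.65 against day 5, 0.19 against the 2-miRNA array and 0.39 against day 7, and 1 gene passed 2-fold against day 7 for either mix. With the median over probe sets 2 genes were past 2-fold with 2 miRNAs against day 5 (3 otherwise) and 1 with 4 miRNAs (2 otherwise), PKP2 being lost from both, and 1 with 2 miRNAs against day 7. The list genes past 2-fold, 14 and 13 for 2 and 4 miRNAs against day 5, were 8 and 8 with the 70th percentile filter, where fewer genes are tested, and 7 for 2 miRNAs against day 7. With no filter they were 21 and 16 against day 7 (11 and 10 with the filter), 13 for day 7 against day 5 and 4 between the miRNA arrays. Between the miRNA arrays the count of 2 became 4 with a common median or a pseudocount of 8, 1 without scaling, with the larger pseudocount or with the median over probe sets, and 0 with the 70th percentile filter. For day 7 against day 5 the count of 2 became 4 with quantile normalization and 0 with the 70th percentile filter. Of the 54 single-gene differences, 36 moved by more than the SD between probe sets without scaling and 8 with the median over probe sets, and 0 under any other setting; no gene past 2-fold changed sign.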
